A study of Mus musculus with 7 samples.

Results

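The genes examined here were those whose mouse symbol has the form of a collagen alpha chain, that is Col, a type number, the letter a and a chain number. By this rule there were 44 collagen genes among the 52230 genes to which the transcripts of the deposited tables were matched, and all 44 were assigned to a class by the structure their chains are known to form. There were 11 genes of fibrillar collagens, 8 of basement membrane collagens, 3 of network collagens, 6 of beaded filament collagens, 9 of fibril-associated collagens, 4 of membrane collagens and 3 others. The measurements were RNA-seq libraries of ovaries depleted of granulosa cells by puncture. This tissue holds stroma, theca, vessels and immune cells and is called stromal tissue below. It still held transcripts of granulosa and oocyte markers, whose levels are given below, so collagen levels are not those of stroma alone. It came from immature female mice, aged 21 to 27 days by the sample labels, of the PRKO line (Pgrtm1Bwo), in which the progesterone receptor gene *Pgr* is disrupted in the germline and so in every cell type. There were 4 libraries of PGR +/+ mice (WT, replicates 1 to 4) and 3 of PGR -/- littermates (KO, replicates 2 to 4), each made from the pooled tissue of 3 mice. All mice in both groups received 5 IU of PMSG (eCG, a gonadotropin that makes follicles grow), 44 h later 5 IU of hCG (which stands in for the luteinizing hormone surge), and were killed 8 h post-hCG, when follicles approach rupture. The spread between replicates is therefore a spread between pools of mice, not between single mice.

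Collagens are secreted or membrane-bound proteins whose alpha chains wind around each other into a stiff helix. Fibrillar collagens build the tension-bearing fibrils of connective tissue, including the theca externa and the tunica albuginea of the ovary, and type IV collagen forms the sheet-like network of basement membranes around follicles and vessels. Ovulation requires the collagen-rich wall at the follicle apex to give way, and the progesterone receptor is needed for that rupture. The comparison of KO with WT asks which collagen transcripts differed in the tissue around the follicle shortly before it.

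Between 47.4 M and 63.4 M reads per library were assigned to transcripts. The targeted gene *Pgr* stood at 16.8 to 31.0 CPM in the WT libraries and at 6.13 to 7.56 CPM in the KO libraries, without overlap, where CPM is the read count scaled to library size by TMM normalization. Its log2 fold change was -1.72 (SE 0.202, adjusted p = 0.0544 in edgeR's quasi-likelihood test with Benjamini-Hochberg adjustment, 4.04e-15 in DESeq2), so the libraries matched their labels. Of the markers of smooth muscle and pericytes, 5 of 8 were lower in KO with an unadjusted p under 0.05 in edgeR (beside 5.1% of all genes tested), DESeq2 called 2 of them (*Cnn1* and *Des*), and their summed level was 1550 to 1828 TPM in WT and 1150 to 1496 TPM in KO, where TPM is a level per transcript length, scaled to the same total in each library. Of the oocyte markers, 4 of 8 were higher in KO with such a p (beside 3.84% of all genes), at a sum of 225 to 318 TPM in WT and 291 to 401 TPM in KO. For granulosa markers (2017 to 2863 TPM in WT, 2475 to 3315 TPM in KO) and leukocyte markers (34.1 to 40.2 TPM and 33.4 to 42.0 TPM) no gene of 8 had such a p. Of the fibroblast, theca and endothelial markers 6 of 8, 6 of 6 and 7 of 8 were on the lower side in KO, 1, 1 and 2 of them with such a p, with median log2 fold changes of -0.13, -0.43 and -0.13 and sums of 718 to 1082 TPM, 7850 to 10958 TPM and 514 to 603 TPM in WT and 809 to 918 TPM, 7185 to 8915 TPM and 537 to 583 TPM in KO. Surface epithelium markers were on the lower side in 7 of 7, 1 with such a p, with a median of -0.37, and summed to 56.2 to 87.5 TPM in WT and 58.5 to 71.2 TPM in KO. No marker was at 0 in any library. The part of these cell types in the collagen values was not tested, and in bulk tissue fewer cells of a type and less RNA per cell cannot be told apart.

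Collagen transcripts made up 1.97% to 2.55% of the reads in the WT libraries and 2.10% to 2.26% in the KO libraries. Their summed level was 7651, 6349, 7317 and 6255 TPM in WT replicates 1 to 4 and 6488, 6925 and 7310 TPM in KO replicates 2 to 4. The KO libraries thus lay within the range of the WT libraries, and the means were 6893 ± 697 TPM (SD, n = 4) and 6907 ± 411 TPM (SD, n = 3). Fibrillar collagens held 41.5% to 45.6% of the collagen TPM of a library and basement membrane collagens 38.2% to 43.5%. Beaded filament collagens held 10.9% to 13.4% and fibril-associated collagens 2.27% to 2.78% of the collagen TPM. The network, membrane and other collagens each held under 1% in every library, at 0.178% to 0.263%, 0.166% to 0.224% and 0.227% to 0.325%.

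**Figure D1:**
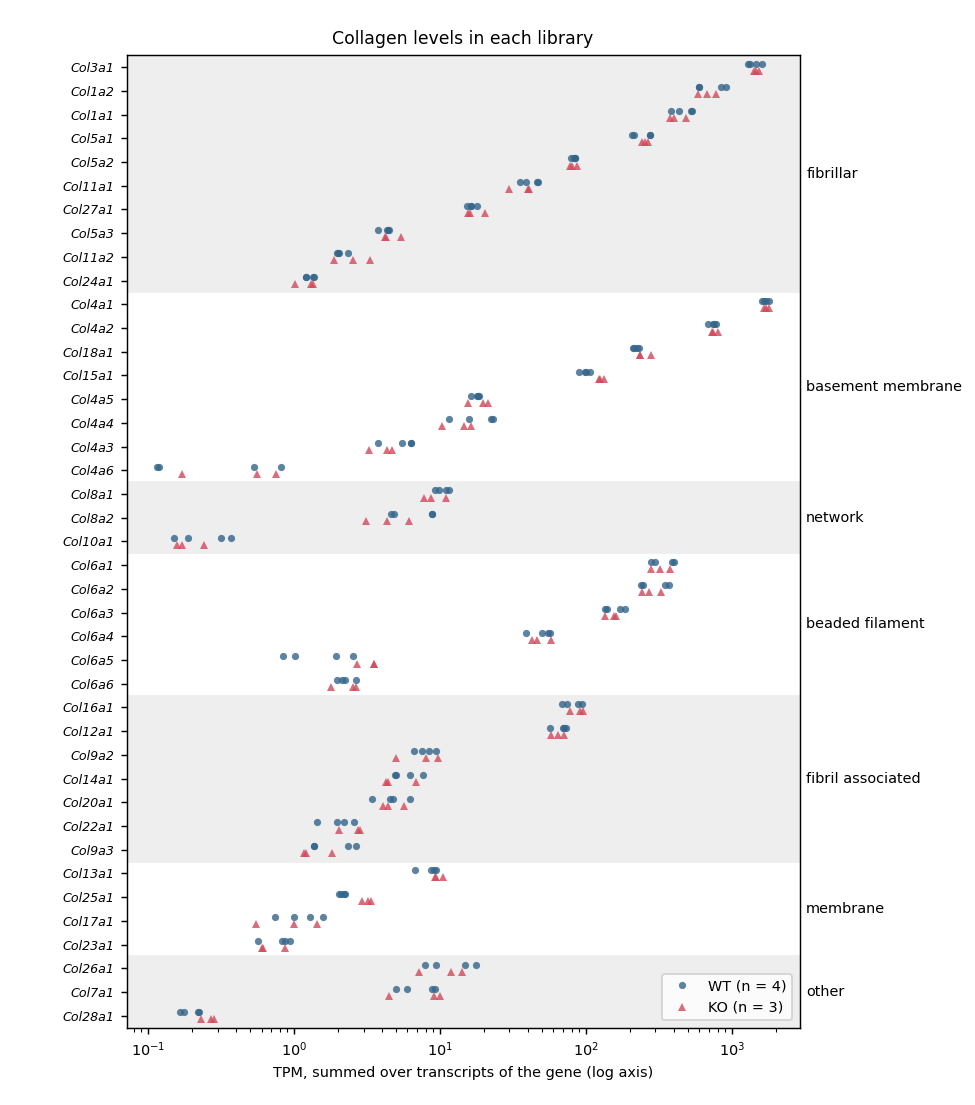
Level of each of the 41 collagen genes that passed the filter on low counts, in TPM on a log axis, with WT libraries as blue circles (n = 4) and KO libraries as red triangles (n = 3), grouped by class. The libraries of a gene lie close together beside the distance between genes, from *Col4a1* at 1623 to 1797 TPM down to genes under 1 TPM such as *Col10a1* at 0.151 to 0.368 TPM.

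The levels of the genes spanned several orders of magnitude. In mean TPM over the 7 libraries, 11 collagens were over 100 TPM, 9 between 10 and 100 TPM, 17 between 1 and 10 TPM and 7 under 1 TPM. *Col4a1* and *Col3a1* were the most abundant, with means of 1710 and 1444 TPM, and their ranges over all libraries did not overlap (1623 to 1797 TPM and 1289 to 1622 TPM). *Col4a2* (747 TPM) and *Col1a2* (713 TPM) followed and overlapped each other. *Col1a1* (449 TPM) lay below both without overlap, and *Col6a1* (335 TPM) and *Col6a2* (291 TPM) came next, each overlapping its neighbour in this order. The gene sum of TPM contains short transcript models, and on CPM per kilobase of the longest coding transcript, a scale chosen after the data were seen, 9 of the 10 highest genes remained. On that scale *Col15a1* took the place of *Col6a3* among the 10, and the first 7 kept their order. *Col2a1*, *Col9a1* and *Col19a1* did not pass the filter on low counts, with 32, 14 and 28 reads in all 7 libraries together, and were not tested.

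Of the 41 tested members, 0 met both thresholds, an adjusted p no higher than 0.05 and a log2 fold change of 0.5 or more in either direction, in edgeR's quasi-likelihood test, where 2 of all 19233 genes tested (0.0104%) did. DESeq2, the tool of the study, called 2 of the 41, *Col25a1* and *Col6a5*, beside 144 of the 18609 genes to which it gave an adjusted p (0.774%), and limma-voom called 0. The call thus depended on the tool. The paper applied DESeq2 at the same thresholds and then excluded genes above a set ratio of granulosa to stromal values. That exclusion was not applied here, so the DESeq2 count above is not the count of the paper. With an unadjusted p under 0.05 in edgeR, 1 collagen was lower in KO (*Col4a3*, 2.44% of the 41, beside 5.1% of all genes) and 3 were higher (*Col25a1*, *Col6a5* and *Col15a1*, 7.32%, beside 3.84%). Every KO library was above every WT library in 5 collagens (12.2%, beside 3.93% of all genes), and below in 0 (beside 5.12%). These 5 were *Col15a1*, *Col18a1*, *Col6a5*, *Col25a1* and *Col28a1*. The median log2 fold change of the tested collagens was -0.06, beside 0.00 for all genes tested, with 25 members on the lower and 16 on the higher side. Its sign was not stable, since it was 0.03 without WT replicate 1. In absolute size, 30 of the 41 (73.2%) were under 0.25, beside 78.7% of all genes.

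**Figure D2:**
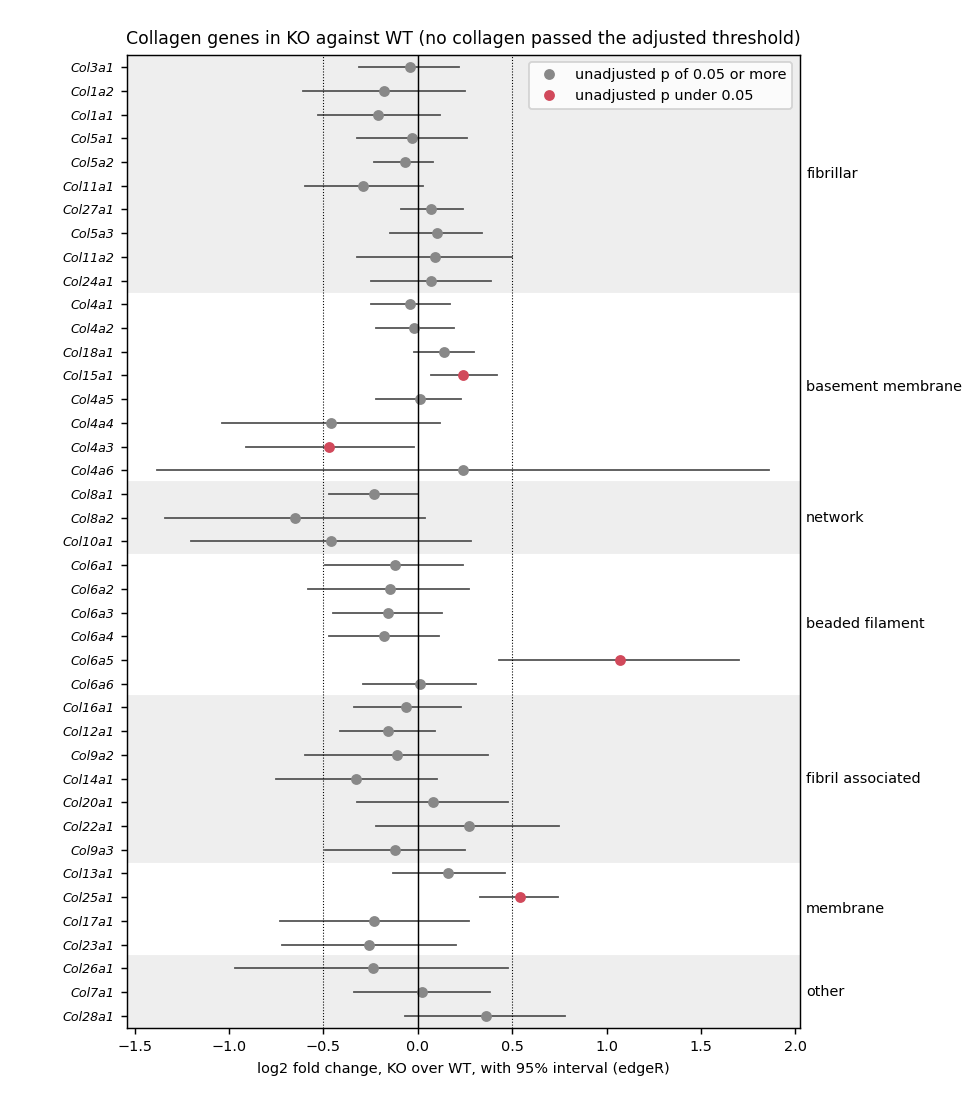
log2 fold change of KO over WT for each tested collagen with its 95% interval from edgeR's quasi-likelihood fit, grouped by class, with dotted lines at 0.5 on either side. Red points mark the 4 genes with an unadjusted p under 0.05, and no collagen was called by edgeR after adjustment over all 19233 genes. *Col25a1* (0.33 to 0.74) and *Col15a1* (0.07 to 0.42) have short intervals that exclude 0, while those of *Col6a5* (0.43 to 1.70) and *Col4a6* (-1.38 to 1.86) are wide.

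The fibrillar collagens, whose trimers assemble into banded fibrils, had no member that was called by edgeR or DESeq2. Of 11 genes 10 were tested, with 6 on the lower and 4 on the higher side, a median log2 fold change of -0.04, a range of -0.29 to 0.10 and no unadjusted p under 0.05 in edgeR. The lowest value was that of *Col11a1*, a minor chain that joins fibrils of other types, at 177, 132, 160 and 128 CPM in WT and 101, 133 and 134 CPM in KO, with overlapping groups (95% interval -0.60 to 0.03, adjusted p = 0.583 in edgeR and 0.565 in DESeq2, where the unadjusted p was 0.0481). *Col3a1*, the chain of type III collagen of pliable tissue, stood at 4481, 3230, 3688 and 3375 CPM in WT replicates 1 to 4 and at 3624, 3619 and 3512 CPM in KO replicates 2 to 4. The KO libraries lay close together inside the range of the WT libraries, and the log2 fold change was -0.04 with a 95% interval of -0.31 to 0.22. *Col1a1*, the chain present in more copies in type I collagen, stood at 2216, 1462, 2046 and 1673 CPM in WT and 1486, 1564 and 1756 CPM in KO. *Col1a2*, its partner chain, stood at 3393, 1985, 2860 and 2029 CPM in WT and 2021, 2292 and 2478 CPM in KO. For both chains of type I collagen the groups overlapped, WT replicates 1 and 3 being above every KO library and WT replicates 2 and 4 among or below them. Their log2 fold changes were -0.21 (95% interval -0.53 to 0.12) and -0.18 (-0.61 to 0.25), so that a decrease by up to these bounds was not excluded by the spread of the libraries. Leaving out single libraries moved them between -0.30 and -0.10 for *Col1a1* and between -0.29 and -0.01 for *Col1a2*, the latter nearest 0 without WT replicate 1. The scarce fibrillar genes *Col5a3*, *Col11a2* and *Col24a1*, with means of 1 to 10 TPM, had log2 fold changes of 0.10, 0.09 and 0.07.

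Among the basement membrane collagens, *Col4a1* and *Col4a2* had log2 fold changes near 0, *Col15a1* had a higher and *Col4a3* a lower value in KO with an unadjusted p under 0.05 in edgeR, and none was called. All 8 genes were tested, with 4 on either side, a median log2 fold change of -0.01 and a range of -0.47 to 0.24. *Col4a1*, which with *Col4a2* encodes the chains found in nearly all basement membranes, stood at 6616, 5725, 5907 and 5387 CPM in WT replicates 1 to 4 and at 5800, 5682 and 5807 CPM in KO replicates 2 to 4. *Col4a2* stood at 3547, 3081, 3128 and 2848 CPM in WT and at 3119, 3096 and 3125 CPM in KO. In both genes WT replicate 1 was the highest library and WT replicate 4 the lowest, with the KO libraries between them. The log2 fold changes were -0.04 (95% interval -0.25 to 0.17) and -0.02 (-0.22 to 0.19).

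*Col15a1* and *Col18a1*, whose proteins are heparan or chondroitin sulphate proteoglycans of basement membrane zones with an endostatin-like end piece, were the abundant members with higher values in KO. *Col15a1* (chr4:47207582-47313179, GRCm39) stood at 282, 243, 287 and 284 CPM in WT replicates 1 to 4 and at 336, 303 and 334 CPM in KO replicates 2 to 4. The groups did not overlap, WT replicate 2 being the lowest library and KO replicate 3 the closest to the WT libraries. The log2 fold change was 0.24 (SE 0.0762, 95% interval 0.07 to 0.42, a 1.18-fold ratio), and edgeR gave an unadjusted p of 0.0114 and an adjusted p of 0.386. *Col18a1* stood at 713, 677, 715 and 652 CPM in WT and 729, 737 and 816 CPM in KO. Here too the groups did not overlap, with KO replicate 2 close to the highest WT libraries, and the log2 fold change was 0.14 (95% interval -0.02 to 0.30, adjusted p = 0.590 in edgeR). The *Slc19a1* gene overlaps *Col18a1* on the opposite strand by 8825 bases, and whether the authors' quantification used the strand of the reads was not given in the sources used here.

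*Col4a3* and *Col4a4*, partners of *Col4a5* in specialised basement membranes such as those of the kidney glomerulus, lie head to head on chromosome 1 with an overlap of 159 bases. *Col4a3* (chr1:82564642-82699780) stood at 39.3, 29.7, 35 and 20.9 CPM in WT replicates 1 to 4 and at 18.7, 24.4 and 24.6 CPM in KO replicates 2 to 4. *Col4a4* stood at 167, 103, 147 and 75.7 CPM in WT and 70.3, 95.4 and 103 CPM in KO. In both genes the libraries kept nearly the same order, with WT replicates 1 and 3 high and KO replicate 2 low, and WT replicate 4 lay among the KO libraries. The log2 fold change of *Col4a3* was -0.47 (SE 0.197, 95% interval -0.91 to -0.02), where edgeR gave an unadjusted p of 0.0431 and an adjusted p of 0.537, and that of *Col4a4* was -0.46 (95% interval -1.04 to 0.12). For *Col4a3* the unadjusted p stayed under 0.05 in 6 of 14 alternative fits and reached 0.152 without KO replicate 2. *Col4a6*, which lies head to head with *Col4a5* on the X chromosome with 1281 bases between the genes, split the libraries across genotypes. It stood at 3.88, 0.497, 0.514 and 2.28 CPM in WT and 2.50, 0.750 and 3.07 CPM in KO, so that 2 libraries of WT and 1 of KO were under 1 CPM. *Col4a5* did not share this split, at 67.9, 57.1, 59.6 and 64.3 CPM in WT and 53.4, 64.0 and 70.2 CPM in KO.

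**Figure D3:**
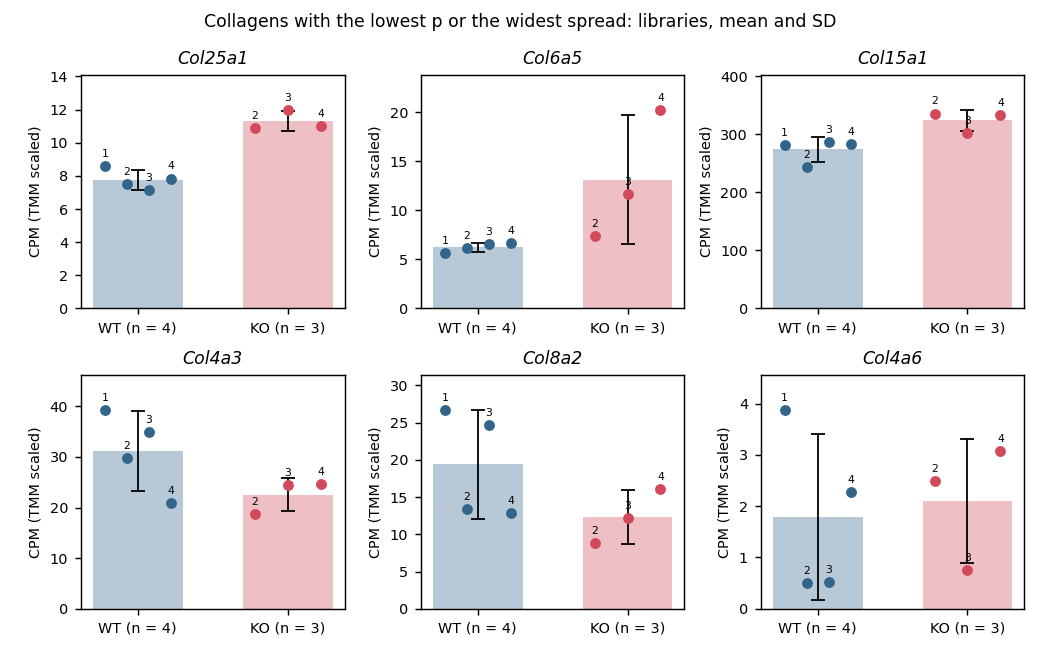
CPM of 6 collagens in each library, with replicate numbers beside the points, bars at the mean and error bars of 1 SD (WT n = 4, KO n = 3). *Col25a1* and *Col15a1* show separate groups with a small spread, *Col6a5* is carried upward by KO replicate 4 at 20.3 CPM, and *Col4a3*, *Col8a2* and *Col4a6* spread widely among the WT libraries.

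All 3 network collagens, short-chain collagens that form hexagonal lattices, were on the lower side in KO, with log2 fold changes of -0.23, -0.65 and -0.46. None had an unadjusted p under 0.05 in the main edgeR fit. In 4 of 14 alternative fits each, *Col8a1* and *Col8a2* had such a p. The lowest were 0.0103 for *Col8a1* without KO replicate 4 and 0.0232 for *Col8a2* without WT replicate 4, both in edgeR. *Col8a1*, a vascular and corneal chain of type VIII collagen, stood at 36.0, 35.8, 30.5 and 37.6 CPM in WT replicates 1 to 4 and at 29.4, 26 and 34 CPM in KO replicates 2 to 4. KO replicates 2 and 3 were below every WT library and KO replicate 4 was within their range (95% interval of the log2 fold change -0.47 to 0.00, adjusted p = 0.567 in edgeR). *Col8a2*, its partner chain, stood at 26.7, 13.4, 24.7 and 12.8 CPM in WT and at 8.84, 12.2 and 16.1 CPM in KO. WT replicates 1 and 3 were at about the level of each other and above all other libraries, while WT replicates 2 and 4 lay between KO libraries (95% interval -1.34 to 0.04, adjusted p = 0.569 in edgeR). *Col10a1*, the collagen of hypertrophic cartilage, had 15 to 45 reads per library. It lies within the span of *Nt5dc1* on the opposite strand, so its few reads are uncertain.

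The main beaded filament chains of type VI collagen, a microfibril that links cells to the matrix, did not differ beyond the spread of the libraries. Of the 6 genes, all tested, 4 were on the lower side, and the median log2 fold change was -0.14. *Col6a1* stood at 1153, 773, 1014 and 731 CPM in WT replicates 1 to 4 and at 750, 850 and 930 CPM in KO replicates 2 to 4. *Col6a2* and *Col6a3*, its partner chains, ranged from 602 to 1033 CPM and from 428 to 572 CPM in WT and from 635 to 781 CPM and from 386 to 490 CPM in KO. In all 3 genes WT replicates 1 and 3 were the highest libraries, and the log2 fold changes were -0.12, -0.15 and -0.16, with 95% intervals of -0.49 to 0.24, -0.58 to 0.27 and -0.45 to 0.13.

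*Col6a5*, a scarce later-described chain of type VI collagen, had the largest fold change of the tested collagens. It (chr9:105733270-105837858, minus strand) stood at 5.65, 6.18, 6.54 and 6.69 CPM in WT replicates 1 to 4 and at 7.37, 11.7 and 20.3 CPM in KO replicates 2 to 4, from 294 to 416 and from 424 to 1177 reads. The groups did not overlap, yet KO replicate 2 was close to the WT libraries and KO replicate 4 far above the rest. The means were 6.27 ± 0.463 CPM (SD, n = 4) and 13.1 ± 6.59 CPM (SD, n = 3), and the log2 fold change was 1.07 (SE 0.280, 95% interval 0.43 to 1.70). Its adjusted p was 0.314 in edgeR and 0.00916 in DESeq2, and without KO replicate 4 the log2 fold change was 0.60, 1.35 without KO replicate 2. The coding transcript *Col6a5-202* alone held 0.840, 1.02, 0.971 and 1.04 TPM in WT and 1.07, 1.78 and 3.53 TPM in KO. It carried 90.7% to 100% of the reads of the gene, so its values largely repeat those of the gene. WT replicate 4 and KO replicate 2 were nearly level there. The neighbours on chromosome 9, *Col6a4* at 28.8 kb and *Col6a6* at 27.7 kb, had log2 fold changes of -0.18 (95% interval -0.47 to 0.11) and 0.01 (-0.29 to 0.31), so the values of *Col6a5* were not shared along the cluster.

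The fibril-associated collagens, which sit on the surface of fibrils and space them, had no member with an unadjusted p under 0.05 in the main edgeR fit. Without KO replicate 4, *Col14a1* had an unadjusted p of 0.0119 in edgeR. Of 9 genes 7 were tested, with 5 on the lower and 2 on the higher side, a median log2 fold change of -0.11 and a range of -0.33 to 0.27. *Col16a1* stood at 227, 163, 197 and 156 CPM in WT replicates 1 to 4 and at 173, 189 and 175 CPM in KO replicates 2 to 4, with the KO libraries inside the WT range. *Col12a1*, a chain of dense connective tissue, stood at 282, 264, 259 and 237 CPM in WT and at 254, 189 and 256 CPM in KO. There only KO replicate 3 was outside the WT range, and the log2 fold change was -0.16 (95% interval -0.41 to 0.09). *Col9a2*, a chain of cartilage type IX collagen, ranged from 11.3 to 17.2 CPM in WT and from 8.46 to 16.1 CPM in KO. Its partners *Col9a3* and *Col9a1* were at 1.85 to 2.70 CPM over all libraries and at 14 reads in total.

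Of the 4 membrane collagens, which are single-pass transmembrane proteins with a shed collagenous ectodomain, *Col25a1* had the lowest p of all collagens. *Col25a1* (chr3:129925150-130393532, plus strand) is known for its role in motor innervation of muscle and as a component of amyloid plaques. It stood at 8.57, 7.51, 7.17 and 7.84 CPM in WT replicates 1 to 4 and at 10.9, 12 and 11 CPM in KO replicates 2 to 4, from 378 to 488 and from 574 to 637 reads. Every KO library was above every WT library, and within each group the libraries lay close together, with means of 7.77 ± 0.599 CPM (SD, n = 4) and 11.3 ± 0.580 CPM (SD, n = 3). The log2 fold change was 0.54 (SE 0.0898, 95% interval 0.33 to 0.74, a 1.45-fold ratio), with an unadjusted p of 0.000218. Its adjusted p over all genes was 0.141 in edgeR, which does not pass, and 0.000126 in DESeq2, which passes. Leaving out any library kept the log2 fold change between 0.50 and 0.60, with adjusted p of 0.112 to 0.462 in edgeR. Its leading coding transcript *Col25a1-202* held 1.46, 1.33, 1.29 and 1.42 TPM in WT and 2.01, 2.26 and 2.11 TPM in KO, and the next model, *Col25a1-204*, annotated as subject to nonsense-mediated decay, held 0.489 to 0.598 TPM and 0.606 to 0.726 TPM. Both transcripts thus had separate groups in TPM in the same direction. For *Col25a1-204* the gap between the groups was narrow, and its reads, not scaled for depth, overlapped (67 to 84 in WT, 76 to 95 in KO). The values of both models are parts of the gene value and do not add to it as separate evidence.

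The other membrane collagens were scarce and overlapped between genotypes. *Col13a1*, found at cell junctions and the neuromuscular synapse, stood at 16.5, 15.9, 15.8 and 11.6 CPM in WT replicates 1 to 4 and at 18.9, 16.3 and 15.1 CPM in KO replicates 2 to 4. *Col17a1*, a hemidesmosome protein of epithelia, ranged from 2.33 to 3.97 CPM in WT and from 2.03 to 3.19 CPM in KO. Their log2 fold changes were 0.16 (95% interval -0.13 to 0.46) and -0.23 (-0.73 to 0.27), and *Col23a1* had -0.26 (-0.72 to 0.20).

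Of the other collagens, *Col26a1*, first known from testis and ovary, stood at 31.6, 14.8, 24.4 and 12.7 CPM in WT replicates 1 to 4 and at 12.1, 18.9 and 21.9 CPM in KO replicates 2 to 4. *Col7a1*, the anchoring fibril collagen of epithelia, stood at 23.2, 21.9, 21.7 and 13.9 CPM in WT and at 21.2, 20.7 and 19.3 CPM in KO. Both genes overlapped between genotypes, with log2 fold changes of -0.24 (95% interval -0.97 to 0.48) and 0.02 (-0.34 to 0.38). *Col28a1*, a collagen of peripheral nerve, had only 24 to 40 reads per library. Its KO libraries (0.643 to 0.771 CPM) were above its WT libraries (0.477 to 0.603 CPM), with a log2 fold change of 0.36 (95% interval -0.07 to 0.78, adjusted p = 0.611 in edgeR).

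The sequences before the start of the leading coding transcript are given for the 3 collagens with higher values in KO and an unadjusted p under 0.05, read from GRCm39 as the 250 bases before the start, 5′ to 3′ on the strand of the gene. They lie at chr3:129974290-129974539 for *Col25a1*, chr9:105837859-105838108 for *Col6a5* and chr4:47207332-47207581 for *Col15a1*, and no annotated exon falls within them. Capitals mark TATAAA (the TATA box), CCAAT (the CCAAT box), GGGCGG (the GC box) and AGAACA (one arm of the element that progesterone and glucocorticoid receptors bind), each searched on both strands.
Col25a1: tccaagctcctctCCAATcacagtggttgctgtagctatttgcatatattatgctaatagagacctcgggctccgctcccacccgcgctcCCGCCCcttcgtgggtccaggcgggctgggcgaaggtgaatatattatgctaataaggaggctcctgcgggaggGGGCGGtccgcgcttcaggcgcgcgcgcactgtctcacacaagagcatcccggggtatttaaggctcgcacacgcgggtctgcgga
Col6a5: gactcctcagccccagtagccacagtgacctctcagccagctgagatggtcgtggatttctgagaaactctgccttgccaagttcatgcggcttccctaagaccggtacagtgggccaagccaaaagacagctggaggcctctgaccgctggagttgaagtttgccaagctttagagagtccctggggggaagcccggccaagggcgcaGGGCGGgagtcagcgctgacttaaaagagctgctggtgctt
Col15a1: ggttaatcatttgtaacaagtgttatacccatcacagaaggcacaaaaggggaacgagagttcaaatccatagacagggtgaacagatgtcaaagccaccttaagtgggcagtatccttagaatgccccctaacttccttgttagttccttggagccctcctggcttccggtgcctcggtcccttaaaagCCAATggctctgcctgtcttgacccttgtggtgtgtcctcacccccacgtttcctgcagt
The *Col25a1* window held 1 CCAAT and 2 GGGCGG matches, that of *Col6a5* 1 GGGCGG and that of *Col15a1* 1 CCAAT, and AGAACA and TATAAA were in none of the 3. Over the windows of the 41 tested collagens, GGGCGG was found in 43.9%, CCAAT in 29.3%, TATAAA in 14.6% and AGAACA in 9.76%. Over 15636 windows of tested coding genes the shares were 44.2%, 35%, 8.26% and 12.3%. Each window precedes the coding model with the highest TPM, which is not always the start of the gene or of most of its reads. The *Col25a1* window lies inside the annotated span of its gene. *Col22a1-202*, the leading model of *Col22a1*, has 659 bases and held 3.95% to 7.78% of the reads of the gene. GC content was 60.0%, 58.4% and 50.0% in the order printed.

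Ratios between chains of a collagen compare levels per length within a library. The ratio of *Col1a1* to *Col1a2* in TPM was 0.576, 0.644, 0.632 and 0.728 in WT replicates 1 to 4 and 0.641, 0.596 and 0.627 in KO replicates 2 to 4. The ratio of *Col4a1* to *Col4a2*, whose genes lie head to head on chromosome 8 and overlap by 356 bases, was 2.22 to 2.38 in WT and 2.25 to 2.34 in KO. *Col6a1* to *Col6a2*, tandem genes 83.9 kb apart on chromosome 10, stood at 1.08 to 1.21 and 1.15 to 1.18. In these pairs the KO libraries lay inside the WT range although the chains themselves varied by up to 1.72 times between the WT libraries. The ratio of *Col4a5* to *Col4a6* ranged instead from 22.8 to 150 in WT and from 27.9 to 114 in KO. *Col3a1* to *Col1a1*, chains of different collagens that share fibrils, was 3.10, 3.35, 2.73 and 3.05 in WT and 3.76, 3.78 and 3.00 in KO, 2 of the 3 KO libraries being above every WT library. By exact permutation of the genotypes over the libraries (two-sided, 35 arrangements) the adjusted p of the 5 ratios were 0.821 to 0.971. The smallest unadjusted p possible is 0.0286, and 0.143 after adjustment where 1 ratio alone separates, so 1 ratio alone could not have passed 0.05 and these p do not show that the ratios were equal. The lowest unadjusted p was 0.200, for *Col3a1* to *Col1a1* (log2 difference 0.20 between KO and WT).

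**Figure D4:**
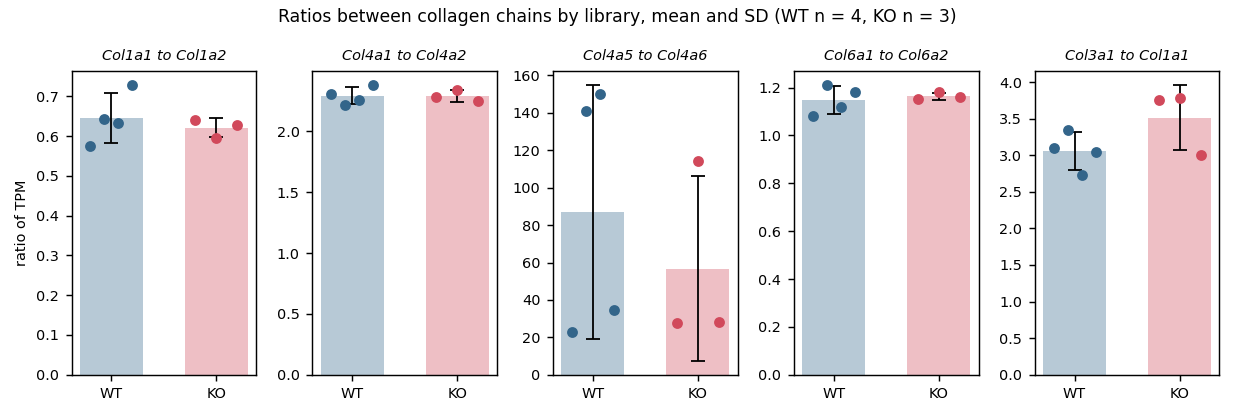
Ratio of TPM between collagen chains in each library, with bars at the mean and error bars of 1 SD (WT n = 4, KO n = 3) and a scale of its own for each pair, starting at 0. The ratios of *Col4a1* to *Col4a2* (2.22 to 2.38) and *Col6a1* to *Col6a2* (1.08 to 1.21) vary little, and that of *Col4a5* to *Col4a6* (22.8 to 150) splits into separate groups of libraries within both genotypes.

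The WT libraries differed among themselves in collagens more than in other genes. The median SD of log2 CPM over the WT libraries was 0.23 for the tested collagens and 0.14 for all genes tested, and over the KO libraries 0.17 and 0.13. WT replicates 1 and 3 were the highest of the WT libraries in 21 of 41 collagens (51.2%), beside 22.1% of all genes, whereas WT replicates 2 and 4 were the highest in 3 collagens (7.32%), beside 22% of all genes. The 21 included *Col1a1*, *Col1a2*, *Col3a1*, *Col4a1* to *Col4a4*, *Col6a1* to *Col6a4* and *Col8a2*. These genes share libraries and are not independent of each other, and no label separates these WT pools. *Col8a2*, *Col4a4* and *Col26a1* varied most among the more abundant of them, with the highest WT library 2.08, 2.21 and 2.49 times the lowest in CPM.

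**Figure D5:**
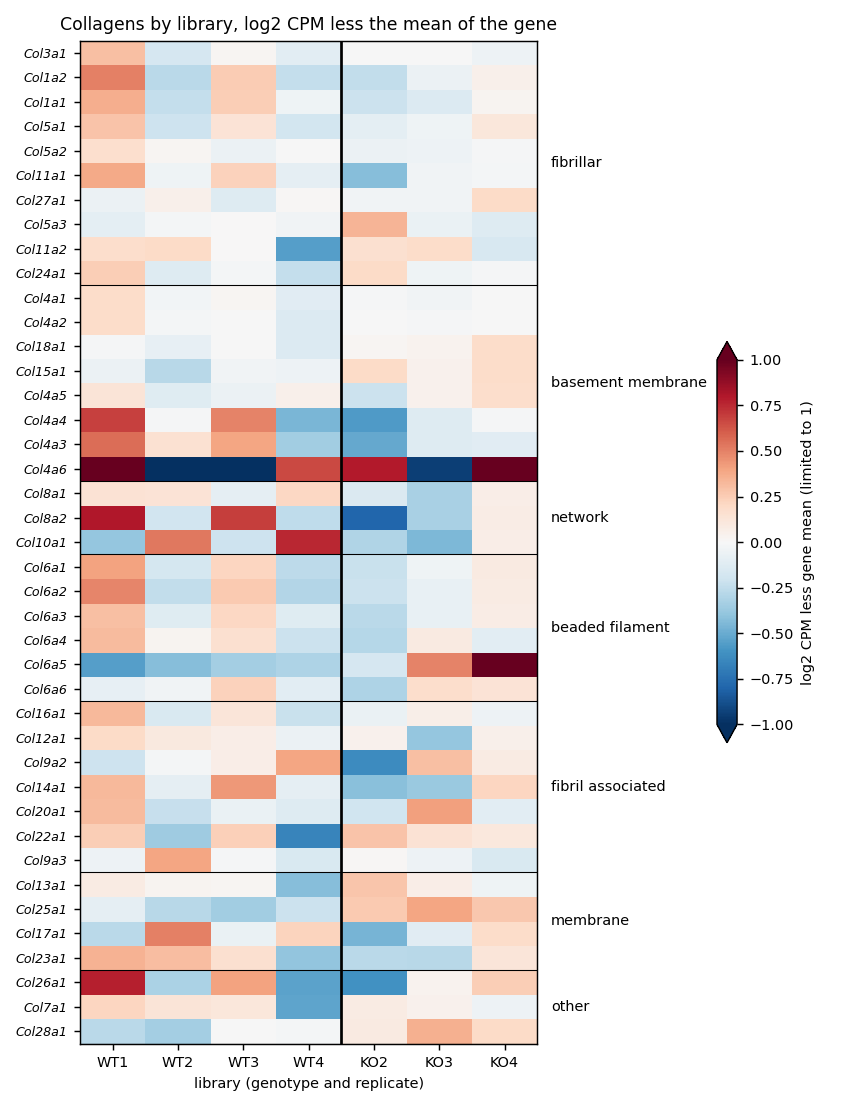
log2 CPM of the 41 tested collagens less the mean of the gene over the 7 libraries, in rows by class and columns by library, limited to 1 on either side. WT replicates 1 and 3 are red in the rows of *Col1a1*, *Col1a2* and *Col6a1* to *Col6a3*, and *Col4a6* alternates between dark red and dark blue across both genotypes. *Col25a1* and *Col6a5* are blue in all WT libraries, and *Col6a5* is blue in KO replicate 2 as well.

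Which transcript models held the TPM bears on these levels. The leading model by mean TPM was coding in 38 of the 41 tested collagens, annotated as retained intron in 2 and as another type in 1. In 17 it held at least 90% of the TPM of its gene in every library. *Col6a3* was an example of the contrary, since *Col6a3-206*, a retained-intron model of 646 bases, held 41.7% to 54.9% of the gene TPM but 3.80% to 6.14% of its reads. *Col7a1-208* and *Col6a4-204*, the other leading models not annotated as coding, held 0% to 5.87% and 8.35% to 14.3% of the reads of their genes. In *Col15a1* the short coding model *Col15a1-203* of 1755 bases held 31.5, 23.3, 29.8 and 22.9 TPM in WT replicates 1 to 4 and 51.0, 49.8 and 23.7 TPM in KO replicates 2 to 4. The main model *Col15a1-202* held 66.0, 64.6, 75.6 and 76.1 TPM in WT and 79.8, 73.0 and 96.7 TPM in KO. On the main model alone KO replicate 3 lay among the WT libraries, so the separation of the groups in *Col15a1* TPM rested in part on the short model in KO replicates 2 and 3.

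Genes that modify, export, process, crosslink and bind collagens were read from lists of 75 genes, of which 72 were tested. None was called by edgeR or by DESeq2 at the thresholds above, 2 were lower (2.78%, beside 5.1% of all genes) and 1 was higher (1.39%, beside 3.84%) in KO with an unadjusted p under 0.05 in edgeR, and the median log2 fold change was -0.04. Of the 16 enzymes of chain maturation 1 had such a p, *P3h2*, a prolyl 3-hydroxylase that acts on basement membrane collagen, at 36.3 to 40.8 CPM in WT and 42.8 to 45.6 CPM in KO (log2 fold change 0.22, SE 0.0589, adjusted p = 0.316 in edgeR). The abundant members *Ppib*, a prolyl isomerase, and *P4hb*, the shared subunit of prolyl 4-hydroxylase, had -0.01 and -0.06. Of 7 genes of folding and export none had such a p, *Serpinh1*, the collagen chaperone HSP47, at 818 to 979 TPM over all libraries with a log2 fold change of -0.02, and *Fkbp10*, a prolyl isomerase of the endoplasmic reticulum, with -0.02. Of 9 tested genes that cleave propeptides none had one, the enhancer protein *Pcolce* with -0.12 and *Bmp1*, a procollagen C-proteinase, with 0.14.

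Among the 5 lysyl oxidases, which crosslink collagen, *Loxl4* was lower with an unadjusted p under 0.05, at 2.04 to 2.80 CPM in WT and 1.55 to 2.15 CPM in KO (log2 fold change -0.42, SE 0.183, adjusted p = 0.552 in edgeR). The more abundant *Loxl2* and *Loxl1* had -0.23 and 0.00. Of 13 tested fibril partners none had such a p, *Sparc*, a collagen-binding glycoprotein at 2600 to 3073 TPM, with -0.13 and the proteoglycan *Bgn* with -0.08. Of 13 basement membrane partners *Lama5*, a laminin alpha chain, stood at 59.1 to 62.0 CPM in WT and 50.7 to 54.2 CPM in KO without overlap (log2 fold change -0.22, SE 0.0499, adjusted p = 0.251 in edgeR and 0.0491 in DESeq2, under the fold threshold). *Hspg2* (perlecan) and *Nid1* had -0.04 and -0.14. Of 9 tested collagen receptors none had such a p, *Itgb1*, the beta chain of the integrins among them, with -0.10 and *Itga2*, a collagen-binding alpha chain, with -0.01.

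6 of the tested collagens lie on chromosome 9 with the disrupted *Pgr* gene (chr9:8899830-8968612), where alleles near *Pgr* can travel with the disrupted allele in breeding. *Col5a3* is the closest at 11.7 Mb, with a log2 fold change of 0.10. *Col12a1* is 70.5 Mb away, and *Col6a6*, *Col6a5*, *Col6a4* and *Col7a1* lie 96.6 to 99.8 Mb away. Of these 6 only *Col6a5* had an unadjusted p under 0.05, and the strain background of the libraries was not analysed here.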

How the data were processed

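The 7 RNA-seq libraries of ovaries depleted of granulosa cells, 4 WT and 3 KO, were grouped by the sample labels. Per the labels, libraries were stranded mRNA with paired-end reads of 100 bp. The authors deposited expected counts (Salmon's estimated number of reads per transcript) and TPM, made with Salmon on the GENCODE M26 transcriptome of GRCm39, whose version is not given in the sources used here. Transcript length and effective length stood in the same files. Transcripts were matched by identifier to GENCODE M39 on GRCm39, 137570 of 139225 (98.8%), with 99.37% to 99.4% of reads. Expected counts were summed per gene and rounded, and TPM was summed per gene. Libraries held 47.4 M to 63.4 M reads, and the common biological coefficient of variation was 0.127, so that the spread between pools rather than counting error limited all but the scarcest genes.

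KO was compared with WT by edgeR 4.0.16 in R 4.3.3 (TMM, filterByExpr, glmQLFit, glmQLFTest, two-sided, no covariate), with Benjamini-Hochberg adjustment over 19233 genes. A gene was called where the adjusted p was no higher than 0.05 and the log2 fold change 0.5 or more in either direction. Intervals of 95% were computed from the standard error with the degrees of freedom of the fit. Alternatives were DESeq2 1.42.0, median-of-ratios size factors, limma-voom (limma 3.58.1), transcript length offsets, omission of the filter, a minimum of 10 counts per library, a replicate block and leaving out each library. Level per kilobase of the longest coding transcript was added after the data were seen. Chain ratios were tested by a two-sided exact permutation test with adjustment over 5 ratios (scipy 1.17.1, numpy 2.4.6, pandas 2.3.3). As an alternative, CPM took the place of TPM in the ratios. The fits were tested on simulated counts. Sequences were read from the GRCm39 assembly.

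The collagen genes, classes and lists, written from general knowledge, were chosen with earlier results of these data known. Named were, in each class, the 3 collagens with the highest mean TPM, each with an unadjusted p under 0.05 or called by DESeq2, those that failed the filter, and of each other list the 2 with the highest mean TPM and up to 3 with the lowest p under 0.05. Other collagens named in the text, such as *Col11a1*, *Col4a4*, *Col4a5*, *Col4a6*, *Col5a3*, *Col6a4*, *Col6a6* and *Col23a1*, were chosen after their values were seen or as chain partners and neighbours.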

Additional observations from a re-analysis of the deposited data

Results flagged for a closer look

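In 3 of the 41 tested collagens, 1 WT library lay apart from the other WT libraries by Dixon's criterion for 4 values, which chance meets in about 1 in 20 groups, and the groups of 3 KO libraries were too small to examine in this way. *Col15a1* stood at 243 CPM in WT replicate 2, below the 282 to 287 CPM of the other WT libraries, a gap of 0.878 of the range. *Col13a1* stood at 11.6 CPM in WT replicate 4, below 15.8 to 16.5 CPM, a gap of 0.860 of the range. *Col7a1* stood at 13.9 CPM in WT replicate 4, below 21.7 to 23.2 CPM, a gap of 0.845 of the range. The log2 fold change of *Col15a1* was 0.19 without WT replicate 2, and that of *Col7a1* was -0.12 without WT replicate 4.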

How the results depend on the processing

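The count of all genes called was 2, and it was 144 with DESeq2, 36 without a filter, 6 with at least 10 counts in every library and 1 to 4 without single libraries. Collagens called were 0, 2 with DESeq2 (*Col25a1* and *Col6a5*) and 0 in the other settings. Collagens lower with an unadjusted p under 0.05 were 1, but 2 with DESeq2, 0 with limma-voom, 4 without a filter and 0 to 6 without single libraries (6 without WT replicate 4, 3 without KO replicate 4, 2 without WT replicate 2, 0 without WT replicate 1, KO replicate 2 or KO replicate 3), and those higher were 3 whichever library was left out. *Col25a1*, *Col6a5* and *Col15a1* had such a p in all 14 alternatives. Of 24 named collagens, 15 kept 1 direction in all of them. Without single libraries the log2 fold changes of 9 ran from -0.10 to 0.07 (*Col3a1*), -0.07 to 0.03 (*Col4a1*), -0.05 to 0.05 (*Col4a2*), -0.21 to 0.02 (*Col6a1*), -0.25 to 0.02 (*Col6a2*), -0.12 to 0.06 (*Col16a1*, also 0.06 with length offsets), -0.43 to 0.03 (*Col26a1*), -0.30 to 0.12 (*Col9a2*) and -0.12 to 0.10 (*Col7a1*). The first 7 became positive without WT replicate 1, and the last 2 changed sign without KO replicate 2 or WT replicate 4. The log2 differences of chain ratios ranged without single libraries from -0.10 to 0.01 (*Col1a1* to *Col1a2*), from -0.02 to 0.02 (*Col4a1* to *Col4a2*) and from -0.01 to 0.05 (*Col6a1* to *Col6a2*), whose signs therefore are not determined, with no adjusted p under 0.333 in any ratio. The cause of these changes was not tested.

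Replicate numbers 2 to 4 are shared by both genotypes but name pools of different mice. The deviations of same-numbered libraries correlated at -0.0131, 0.106 and 0.0846. Between differently numbered libraries the values ran from -0.131 to 0.0684, so that 0.106 and 0.0846 lay above that range. These values do not settle whether equal numbers mark a pairing, and the main fit took the libraries as unpaired. With a replicate block 26 genes were called, 0 of them collagens, with 1 collagen lower and 5 higher at an unadjusted p under 0.05. In that fit *Col3a1* was 0.07, *Col4a1* 0.02, *Col4a2* 0.05, *Col6a1* 0.02, *Col6a2* 0.03, *Col16a1* 0.06 and *Col26a1* 0.04 on the log2 scale. *Col1a1* was -0.10 and *Col1a2* was 0.00 there, nearer 0 than without the block. Replicate 1 exists only in WT, so with the block WT replicate 1 has no part in the comparison of genotypes. In the fit without WT replicate 1 and without a block, *Col3a1* was 0.07, *Col4a2* 0.05, *Col1a1* -0.10 and *Col1a2* -0.01. That fit called 2 genes.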
